A study of Mus musculus with 16 samples.

Results

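The EphB receptors and their ligands, the ephrin-B proteins, were examined in the bladder body of MAT and AGED mice of both sexes. The members are 8 genes, the receptors Ephb1, Ephb2, Ephb3, Ephb4 and Ephb6 and the ligands Efnb1, Efnb2 and Efnb3, out of 20141 genes with a symbol on the array. They were found through the accession of each probe, and 11 probes matched, with 2 probes each for Ephb4, Ephb6 and Efnb2 and 1 probe for each other member. The family was selected on the measured signal of Ephb1, whose difference between AGED and MAT males was already known. The values of Ephb1 in males, and every comparison that holds AGED or MAT males, are therefore given for this gene as a description without a test.

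Eph receptors form the largest family of receptor tyrosine kinases, and their ephrin ligands are anchored to the membrane of a neighbouring cell. Contact sends a forward signal into the cell with the receptor and a reverse signal into the cell with the ephrin-B, whose tail can be phosphorylated and binds PDZ domain proteins. The system is known for repulsion and sorting of cells at tissue borders, guidance of axons, assembly of vessels and the order of epithelial layers.

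All mice were C57BL/6, with no transgene or drug named in the labels. An age of 12 months defined the MAT group and one of 27 to 30 months the AGED group, and each of the 4 groups of 1 age and sex had 4 bladders with 1 array each. RNA came from the dissected bladder body as a whole, so a lower signal can come from fewer cells of a type or from less RNA per cell, and the 2 cannot be told apart. The females lay on slide 1 and the males on slide 2, and on both slides MAT mice lay in row 1 and AGED mice in row 2, so that the effect of sex and slide, and the effect of age and row, cannot be told apart.

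Signals are given as the log2 processed signal of a probe less the 75th percentile of its array, so that 0 is the level of that percentile and 1 unit is a 2-fold difference. A level is comparable between arrays for 1 probe, not between probes. Between 52.4% and 68.3% of the probes of an array were well above background, a flag that the scanner software sets. AGED male replicate 1 had the lowest share and the lowest median signal, 48.4 against 66.2 to 128.8 on the other arrays. All 10 urothelium markers and all 9 smooth muscle markers were tested and none differed between AGED and MAT mice of either sex at an adjusted p under 0.05. Upk1a and Upk3a, plaque proteins of umbrella cells, had mean signals of 7.89 and 7.22 in MAT males and 7.81 and 7.41 in AGED males. Cnn1 and Tagln, smooth muscle proteins, had 8.11 and 8.09 in MAT males and 8.16 and 8.28 in AGED males.

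Every age difference below follows the age that the label of each array gives. This direction opposes the one in the study's list of genes most changed between the ages. Of that list, 8 genes were tested here, and 8 of 8 had the opposite sign in each sex, although F10 lay near 0, at 0.12 in males and 0.15 in females. Chil3, a chitinase-like protein of macrophages, was 5.68 higher in arrays labelled AGED male than in those labelled MAT male (adjusted p = 5.77e-06), and Mmp3, a matrix metallopeptidase, was 2.47 higher (adjusted p = 0.00115). The files do not settle whether the list or the labels are turned, so AGED and MAT mean the arrays labelled so, and the sign of each age difference rests on the labels.

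Ephb1 encodes a receptor studied mainly in axon guidance and at synapses. The gene lies on chromosome 9 between positions 101922128 and 102354693 (GRCm38.p6), and its probe matches NM_173447. It is the member on which the results turn, so the 250 bases before its start are shown (RefSeq, GRCm38.p6, chr9:102354694-102354943, minus strand, 5′ to 3′), with each CG dinucleotide in capitals.
Ephb1: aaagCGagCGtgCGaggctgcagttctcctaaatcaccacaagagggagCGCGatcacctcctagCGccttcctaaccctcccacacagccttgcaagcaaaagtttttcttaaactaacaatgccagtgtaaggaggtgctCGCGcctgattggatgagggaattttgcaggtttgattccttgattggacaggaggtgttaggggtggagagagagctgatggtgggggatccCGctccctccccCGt
This window held 10 CG dinucleotides, and 37.8% of the 32817 promoter windows of the same length held as many or more, with a median of 6. The other 6 members with a window in the table had from 12 (Ephb4) to 27 (Ephb6 and Efnb2), so that Ephb1 had the fewest of the 7. The dinucleotide reads the same on both strands, and the count is a description of the sequence alone.

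In AGED males the Ephb1 signal was near background. The 4 MAT males had -1.93, -1.72, -1.70 and -1.19, and the 4 AGED males -4.64, -5.07, -3.97 and -5.12. The highest AGED male was thus below the lowest MAT male, as for 7.82% of all genes tested with groups that did not overlap in either direction, and the probe was well above background on 4 of 4 MAT male arrays and on 0 of 4 AGED male arrays. As measured, the mean of the MAT males, -1.64 ± 0.32 (SD, n = 4), was 8.37-fold above that of the AGED males, -4.70 ± 0.53 (SD, n = 4). The size of this fold is uncertain, since the AGED male signal was near background. A floor at the faintest signal flagged as well above background on each array could not change it, so it is no check. On 4 of 4 AGED male arrays the Ephb1 signal already lay above that level. With normexp background correction (offset 50), which compresses low signals, the difference was smaller, -1.89 on the log2 scale.

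In females the receptor stayed measurable at both ages. MAT females had -2.80, -2.99, -2.25 and -2.67, and AGED females -2.25, -3.04, -2.91 and -2.05. All 8 arrays were well above background and the groups overlapped across their whole range. The age difference in females was 0.12 (SE 0.28, 95% interval -0.49 to 0.72, adjusted p = 0.939 in limma over all genes tested).

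The levels of Ephb1 ran from MAT males over the females of both ages to AGED males. MAT and AGED females, neighbours in this order, did not differ beyond their spread. MAT males were 1.04 above MAT females without overlap. AGED males were 2.14 below AGED females without overlap, which is 4.40-fold as measured and -1.13 on the log2 scale with normexp. Beside this, 18.4% of the genes tested did not overlap between MAT males and MAT females and 13.7% did not overlap between AGED males and AGED females. As measured, the age change of Ephb1 in males was 3.18 units below that in females. With normexp the difference of the age changes was -1.90, and its size is uncertain since AGED males were near background. None of the other 7 members had a difference of the age changes at an adjusted p under 0.05, beside 0.149% of all genes tested.

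**Figure D1:**
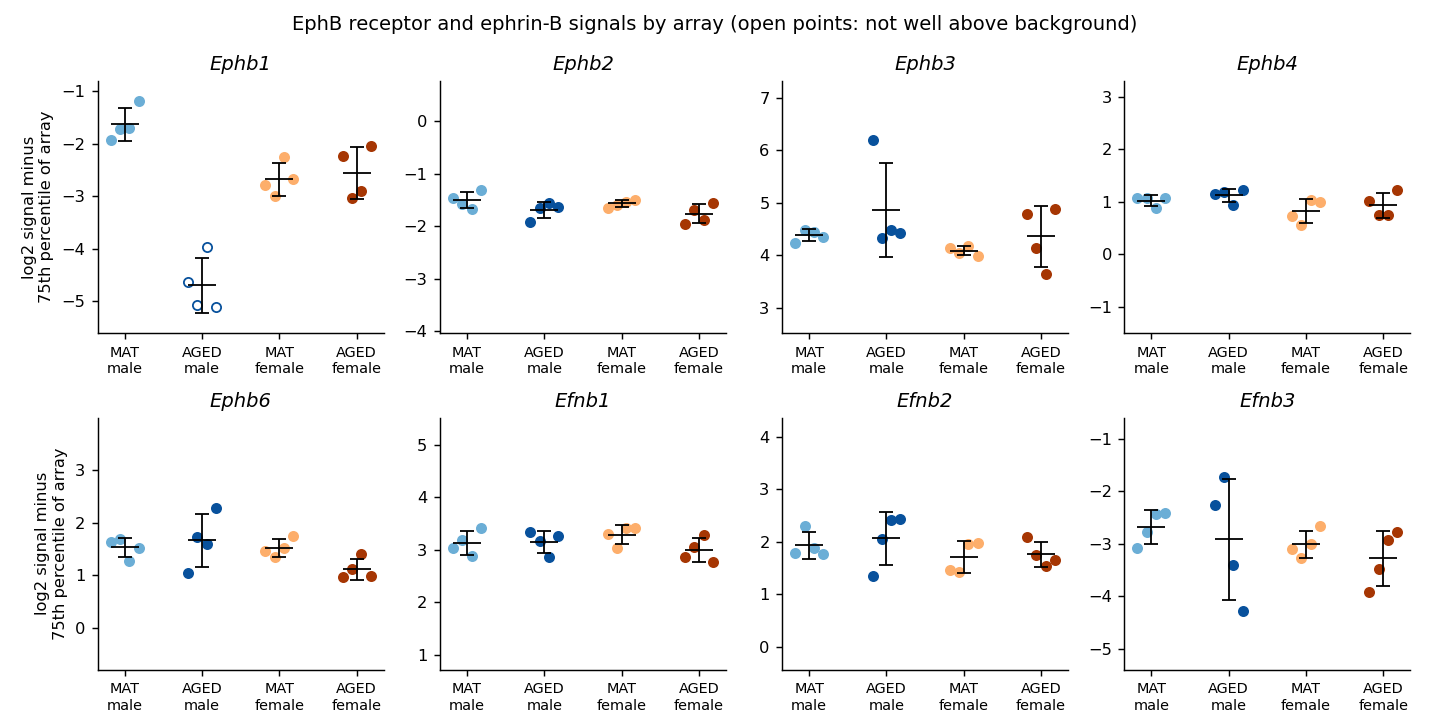
Log2 signal less the 75th percentile of the array (vertical axis, every panel spanning the same number of units) for the main probe of each member on each of the 16 arrays; open points were not well above background, and bars give the mean and SD of 4 arrays. Ephb1 falls to between -5.12 and -3.97 in AGED males, where all 4 points are open, and Ephb3 has 1 AGED male array at 6.19.

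The Ephb1 probe has 1 spot on each array, and its unprocessed intensity shows the same order. The median pixel intensity was 340.0, 376.0, 413.0 and 477.0 on MAT male arrays and 93.0, 102.0, 103.0 and 76.0 on AGED male arrays. On female arrays it lay between 211.0 and 379.5. The local background around the spot was 24 to 27 on all 16 arrays, and none of the 16 spots carried an outlier flag.

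Each array also holds 308 negative control spots, which have no matching RNA. On AGED male arrays the Ephb1 spot was brighter than 284 to 305 of these controls, and on the other 12 arrays brighter than at least 307. The signal in AGED males thus lay in the upper tail of the controls, and an upper level is all that it gives. Around the spot, within 4 rows and 6 columns on each side, lay 109 other probes, whose median difference between AGED and MAT males was 0.045.

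**Figure D2:**
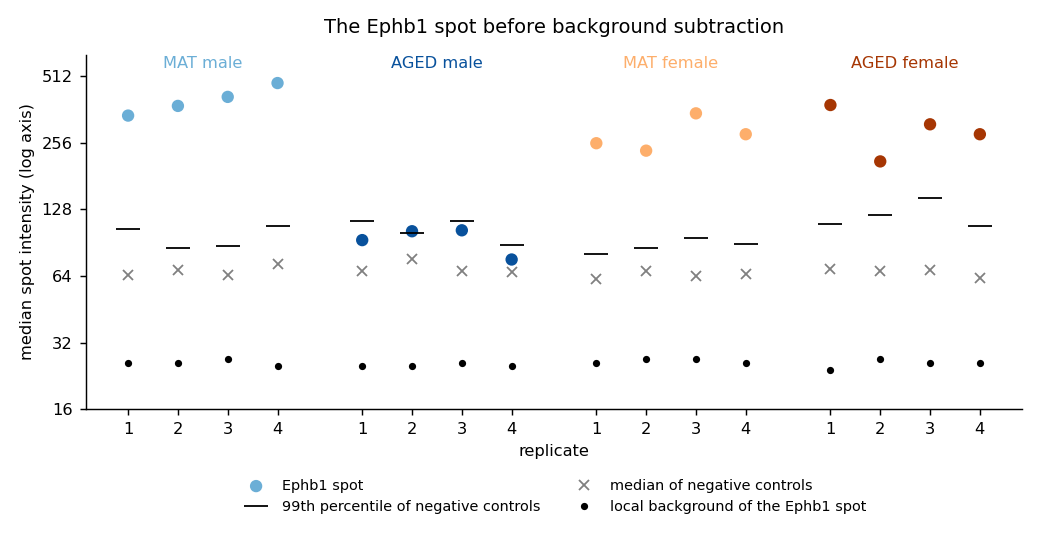
Median intensity of the Ephb1 spot before background subtraction (log axis) on each array, with the median and 99th percentile of the negative control spots and the local background of the spot. In AGED males the spot lies between 76.0 and 103.0, near or below the 99th percentile of the controls, while the local background is level over all arrays.

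Of the other 4 receptors, none was called in AGED against MAT mice of either sex, where a call in limma needs a difference of 2-fold or more with an adjusted p under 0.05. In males 0 of the 7 members other than Ephb1 were called, beside 0.851% of the 26781 genes tested. In females 0 of 8 members were called, beside 0.19% of all genes. In females 0 of 8 members also had an unadjusted p under 0.05, beside 10.5% of all genes, and 0 of 8 did not overlap between the ages, beside 10.8%.

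Ephb2, a receptor of epithelial stem cell compartments and synapses, lies on chromosome 4 (136647536 to 136836326). Its signal was among the most even of the family, from -1.68 to -1.32 in MAT males, -1.93 to -1.57 in AGED males, -1.65 to -1.50 in MAT females and -1.95 to -1.56 in AGED females. The age difference was -0.18 (95% interval -0.45 to 0.079, adjusted p = 0.480) in males and -0.20 (95% interval -0.46 to 0.063, adjusted p = 0.616) in females. A 2-fold difference lay outside both intervals.

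Ephb3, which works beside Ephb2 in sorting epithelial cells, lies on chromosome 16 (21204620 to 21223309). MAT males had 4.23, 4.48, 4.45 and 4.35 and AGED males 6.19, 4.33, 4.49 and 4.43. The mean of the AGED males was raised by replicate 1 alone, the dimmest array of the study, and the other AGED males lay among or next to the MAT males. The difference of 0.48 (SE 0.35, 95% interval -0.27 to 1.23, adjusted p = 0.518) became 0.038 without that array.

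In females the Ephb3 signal spread more in AGED than in MAT mice. MAT females had 4.13, 4.05, 4.18 and 3.98 and AGED females 4.79, 4.14, 3.65 and 4.87. The AGED females lay on both sides of the MAT females, and the difference was 0.28 (SE 0.35, 95% interval -0.47 to 1.03, adjusted p = 0.853). The SD was 0.086 in MAT and 0.58 in AGED females. Itsn1, a gene of the signalling lists, had 0.10 and 0.60, so a wider spread was not particular to Ephb3. Whether the spread goes with age or with the arrays was not tested. For Ephb3, MAT males were above MAT females without overlap, by 0.29 (SE 0.35, adjusted p = 0.757), as were 14% of all genes tested. The SE of 0.35 is shared by all 4 groups, whose spread was unequal. The SD was 0.11 in MAT males and 0.086 in MAT females, against 0.89 in AGED males and 0.58 in AGED females. The adjusted p thus does not weigh the difference between MAT males and MAT females against the spread of MAT mice alone.

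Ephb4, the receptor that marks venous endothelium and pairs with ephrin-B2 of arteries, lies on chromosome 5 (137350109 to 137374522). Its main probe ran from 0.88 to 1.07 in MAT males and from 0.94 to 1.22 in AGED males, with a difference of 0.10 (95% interval -0.20 to 0.40, adjusted p = 0.757). In MAT and AGED females it ran from 0.55 to 1.03 and from 0.74 to 1.23, with a difference of 0.11 (95% interval -0.19 to 0.41, adjusted p = 0.858). The second probe gave -0.069 (SE 0.22) in males and 0.29 (SE 0.22) in females, so the 2 probes differed in sign in males, and neither passed the test (adjusted p = 0.907 and 0.727 for the second).

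Ephb6, a receptor whose kinase domain is inactive and which signals through other Eph receptors, lies on chromosome 6 (41603834 to 41620509). MAT males had 1.63, 1.68, 1.28 and 1.52 and AGED males 1.04, 1.73, 1.60 and 2.28. AGED males held both the lowest and the highest of these values, and the difference was 0.14 (SE 0.21, adjusted p = 0.775). MAT females had 1.46, 1.35, 1.51 and 1.75 and AGED females 0.96, 1.11, 1.40 and 0.98.

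Of the AGED females, 3 lay below every MAT female for Ephb6 and the fourth overlapped with them. The difference was -0.40 (SE 0.21, 95% interval -0.85 to 0.039, unadjusted p = 0.0712, adjusted p = 0.524), the largest age difference of a member in females. This SE is shared by all 4 groups. The SD was 0.17 in MAT and 0.20 in AGED females, against 0.18 in MAT and 0.51 in AGED males. The age change in males was 0.54 above that in females (SE 0.29, adjusted p = 0.584). AGED males were 0.55 above AGED females (SE 0.21, unadjusted p = 0.0181, adjusted p = 0.107). Its second probe was well above background on 1, 3, 4 and 3 arrays of the MAT and AGED males and the MAT and AGED females and is too close to background to order the groups.

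**Figure D3:**
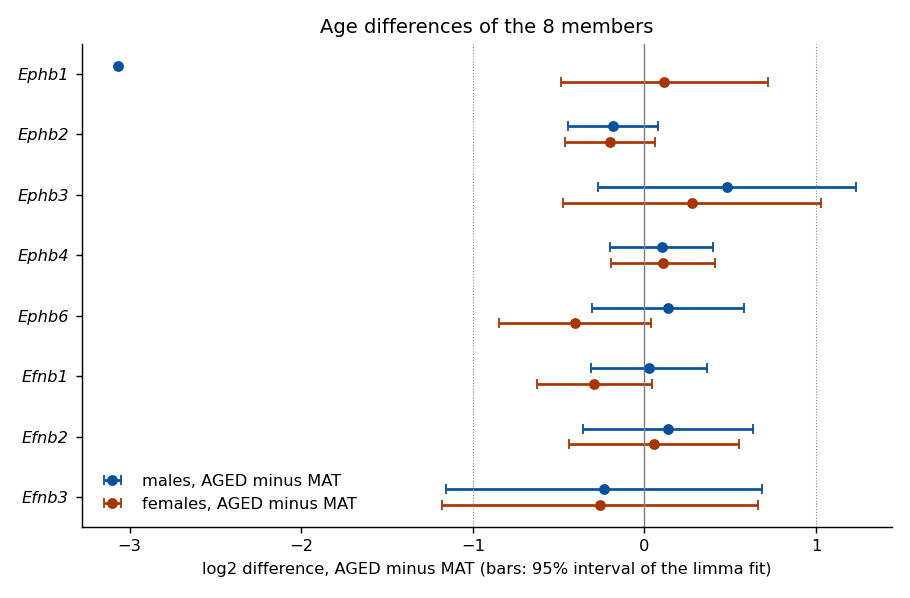
Log2 difference between AGED and MAT mice (horizontal axis) for the 8 members in males and females, with the 95% interval of the limma fit as bars and dotted lines at a 2-fold difference; Ephb1 in males has no bar since it was not tested. Ephb1 in males lies at -3.06, and the intervals of all the other points include 0.

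Efnb1, an ephrin encoded on the X chromosome (99136061 to 99149022) that sorts cells at tissue borders, was well above background on all 16 arrays. MAT males had 3.03, 3.19, 2.88 and 3.42 and AGED males 3.33, 3.17, 2.86 and 3.25. These groups overlapped over most of their range, with a difference of 0.026 (95% interval -0.31 to 0.36, adjusted p = 0.952). MAT females had 3.29, 3.03, 3.40 and 3.40 and AGED females 2.87, 3.05, 3.28 and 2.76.

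The AGED female mean of Efnb1 was below that of MAT females by less than the fit could call, with a difference of -0.29 (SE 0.16, 95% interval -0.63 to 0.044, unadjusted p = 0.0841, adjusted p = 0.548). The age change in males was 0.32 above that in females (SE 0.22, adjusted p = 0.696). By main probe, Ephb6 and Efnb1 had the largest differences between the sexes in the age change after Ephb1, and neither passed the test.

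Efnb2, the ligand that marks arterial endothelium, lies on chromosome 8 (8617235 to 8661242). Its main probe ran from 1.76 to 2.30 in MAT males and from 1.36 to 2.43 in AGED males, and from 1.42 to 1.97 in MAT females and 1.55 to 2.09 in AGED females. The age difference was 0.14 (95% interval -0.36 to 0.63, adjusted p = 0.802) in males and 0.057 (95% interval -0.44 to 0.55, adjusted p = 0.966) in females. The groups overlapped in each sex.

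The second Efnb2 probe was dim and gave other values. It was at -4.63, -4.92, -4.86 and -5.14 in MAT males and at -3.58, -5.16, -3.01 and -4.51 in AGED males, and passed the background flag on every MAT array, but on 3 of 4 arrays of AGED males and 1 of 4 of AGED females. With each of the 36974 kept probes tested, its age difference was 0.82 (SE 0.34, adjusted p = 0.254) in males and -0.21 (SE 0.34, adjusted p = 0.907) in females, and the age change in males was 1.03 above that in females (SE 0.48, adjusted p = 0.522). AGED males were above AGED females by 1.27 (SE 0.34, adjusted p = 0.0336), where the main probe gave 0.31 (SE 0.23, adjusted p = 0.439). The signal of this gene between the sexes of AGED mice thus depends on the probe.

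Efnb3, an ephrin of the nervous system known from midline axon guidance, lies on chromosome 11 (69554092 to 69561150). MAT males had -3.09, -2.78, -2.44 and -2.42 and AGED males -2.26, -1.72, -3.41 and -4.28. The AGED males spread over more than 2 units, on both sides of the MAT males, with an SD of 1.15 against 0.32. The difference was -0.24 (SE 0.43, 95% interval -1.16 to 0.68, adjusted p = 0.816) in males and -0.26 (SE 0.43, 95% interval -1.18 to 0.66, adjusted p = 0.901) in females. These are the widest intervals of the family, and in both sexes they leave room for a 2-fold fall.

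Between males and females, 0 of the 7 members other than Ephb1 were called in MAT mice, beside 0.164% of all genes tested, and 0 of 7 in AGED mice, beside 3.11% of all genes. Over the 8 members the median age difference was 0.063 in males, with 5 above 0 and 3 below, and -0.071 in females, with 4 above and 4 below. Over all genes tested the medians were 0.0015 and -0.0063.

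The patterns over the 16 arrays were compared with those of 15749 other genes that have a symbol and a value on every array. Such correlations are a description, since the arrays share groups, slides and depth. The genes most like Ephb1 were Smoc2 (r = 0.932), a matricellular calcium-binding protein, Atf1 (r = 0.929), a CREB family transcription factor, Ppp1r14a (r = 0.915), an inhibitor of myosin phosphatase in smooth muscle, Tmem51os1 (r = 0.885) and Hmbox1 (r = 0.883). After the group means were subtracted, their r with Ephb1 was 0.62, 0.65, 0.35, 0.72 and 0.45.

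These genes had their lowest group mean in AGED males. This follows from the choice, since they were picked for likeness to Ephb1, which was itself lowest there. Smoc2 went from 5.82 ± 0.18 in MAT males to 4.42 ± 0.36 in AGED males (SD, n = 4), while MAT and AGED females had 5.33 ± 0.18 and 5.36 ± 0.41. Ppp1r14a went from 4.36 ± 0.075 to 3.20 ± 0.26 in males, and had 4.22 ± 0.11 and 4.02 ± 0.098 in females. Tmem51os1 was well above background on 0 of 4 AGED male arrays. Only 3 genes reached an r of 0.9 with Ephb1.

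For Ephb3, 90 genes reached an r of 0.9, and the closest were Sgsh (r = 0.991) and Mcam (r = 0.991). AGED male replicate 1, which lies far from the other arrays for Ephb3, weighs heavily in such an r. The closest genes for the other members were Slc22a28 and Lrig2 for Ephb2 (r = 0.837 and 0.826), Pygo2 and 1110038F14Rik for Ephb4 (0.876 and 0.829), Hspb9 and Ctr9 for Ephb6 (0.924 and 0.915), Foxo1 and Scpep1 for Efnb1 (0.868 and 0.793), Nhlrc2 and G6pc3 for Efnb2 (0.921 and 0.882), and Sfxn4 and Fbxw22 for Efnb3 (0.824 and 0.796). Among the members themselves, r ran from -0.39 for Ephb3 and Ephb6 to 0.58 for Ephb6 and Efnb2. Ephb4 and Efnb2, the venous receptor and its arterial ligand, had an r of 0.44. After the group means were subtracted, these r were -0.77 for Ephb3 and Ephb6, 0.59 for Ephb6 and Efnb2, and 0.27 for Ephb4 and Efnb2.

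The EphA receptors and ephrin-A ligands, the other branch of the system, hold 14 genes on the array. Epha6, Epha8 and Epha10 were too dim to be tested. Of the 6 EphA receptors and 5 ephrin-A ligands tested, none was called in either sex, beside 0.851% of all genes in males and 0.19% in females, with a median age difference of -0.0023 and -0.11 in males and 0.051 and -0.17 in females. The lowest p in males was that of Epha3, at -0.90 (SE 0.27, unadjusted p = 0.00487, adjusted p = 0.116), followed by Epha7 at -0.83 (SE 0.29, adjusted p = 0.175). In females these were Epha5 at 0.41 (SE 0.25, adjusted p = 0.613) and Epha1 at 0.22 (SE 0.15, adjusted p = 0.666). Of the ephrin-A ligands, Efna5 gave -0.30 (adjusted p = 0.577) and Efna2 -0.31 (adjusted p = 0.603) in males, and Efna2 -0.38 (adjusted p = 0.687) and Efna3 -0.17 (adjusted p = 0.724) in females. The mean over the 5 ephrin-A ligands was -0.48 to -0.24 in MAT and -0.78 to -0.50 in AGED females, without overlap. All 5 were lower in AGED females, but by single gene 0 of 5 did not overlap, beside 10.8% of all genes.

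The genes that carry, end or accompany the signal were read from 4 lists. In males 1 of their 50 tested genes was called, beside 0.851% of all genes tested. It was Acp1, the low molecular weight tyrosine phosphatase that acts on Eph receptors. Its main probe ran from 2.63 to 2.71 in MAT males and from 0.46 to 2.54 in AGED males, so that the groups did not overlap. The difference was -1.33 (SE 0.31, adjusted p = 0.0427), against 0.23 (SE 0.31, adjusted p = 0.862) in females. The SE is shared by groups of unequal spread. The SD was 0.037 in MAT males, 0.92 in AGED males, 0.035 in MAT females and 0.10 in AGED females. The female groups did not overlap either, at 2.39 to 2.47 in MAT and 2.56 to 2.80 in AGED mice, beside 10.8% of all genes.

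The call of Acp1 differed between probes and was lost when single arrays were left out. The 5 kept probes of Acp1 gave -1.33, -1.04, -0.77, -0.053 and 0.11 in males, and the call was lost in 19 of 33 alternative settings, among them the fits without any 1 array other than AGED male replicate 1 or 2. Crk, an adaptor of forward signalling, and Sdc2, a heparan sulfate proteoglycan that EphB receptors cluster in dendritic spines, passed the adjusted p but not the 2-fold limit in males, where 1.72% of all genes passed the adjusted p alone. Crk fell by 0.58 on the log2 scale (SE 0.14, adjusted p = 0.0456) and Sdc2 fell by 0.84 (SE 0.15, adjusted p = 0.0114). Sdc2 ran from 2.91 to 3.34 in MAT males and from 2.05 to 2.75 in AGED males, without overlap. The 3 kept probes of Crk gave -0.58, -0.36 and -0.095.

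By list, forward signalling had 12 genes above 0 and 12 below in males with a median of 0.0029, and 17 above and 7 below in females with a median of 0.063. Its other lowest p in males was that of Vav3, a guanine nucleotide exchange factor, at 0.62 (SE 0.17, adjusted p = 0.0936). Reverse signalling had medians of 0.011 and -0.091, with Grip2, a PDZ scaffold of ephrin-B tails, at -0.81 (adjusted p = 0.151) and Nck2, an adaptor, at 0.47 (adjusted p = 0.418) in males. Shedding and dephosphorylation had medians of 0.042 and 0.055, with Adam10, a protease that cleaves ephrins, at 0.27 in males (adjusted p = 0.449). Co-receptors and membrane partners had medians of -0.14 and -0.25, with Cxcr4, a chemokine receptor, at 0.68 in males (adjusted p = 0.268).

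In females 0 of the 50 genes were called, beside 0.19% of all genes. The lowest p in each list belonged to Abl1 at -0.44 (adjusted p = 0.396) and Grb10 at 0.60 (adjusted p = 0.456) in forward signalling, and to Sdcbp at 0.30 (adjusted p = 0.401) and Stat3 at 0.28 (adjusted p = 0.492) in reverse signalling. They were Mmp9 at -0.46 (adjusted p = 0.754) and Rhbdl2 at 0.12 (adjusted p = 0.838) in shedding, and Sdc2 at -0.31 (adjusted p = 0.492) and Ryk at -0.29 (adjusted p = 0.512) among the partners. None of these lists held a change past the test in AGED females.

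**Figure D4:**
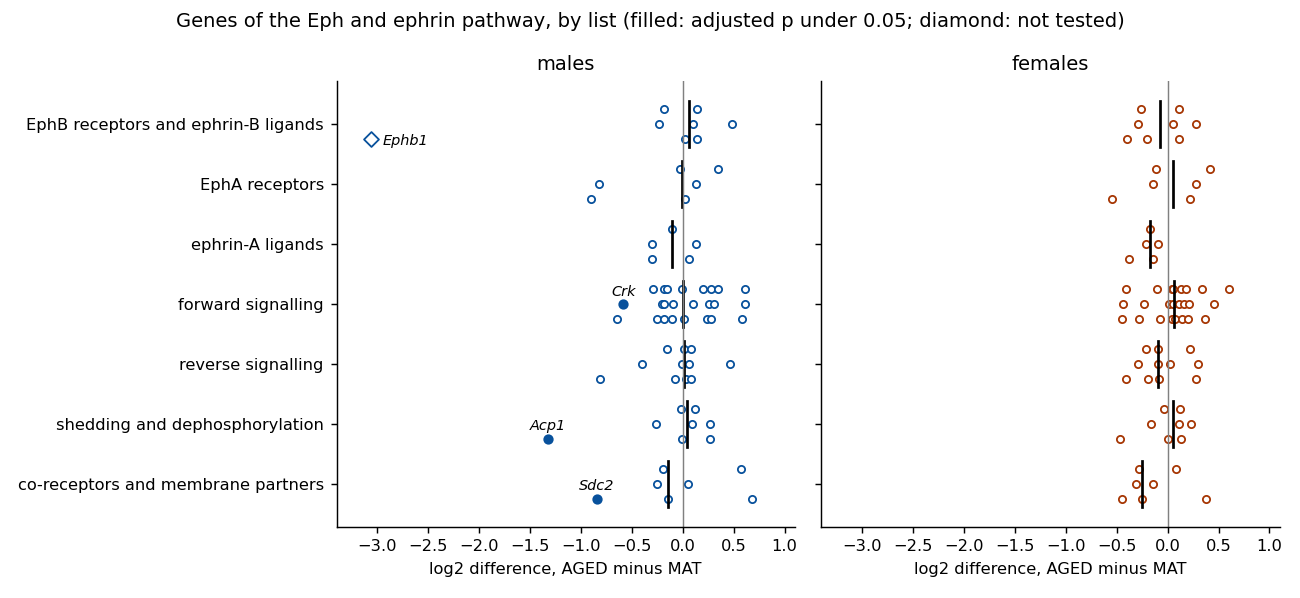
Log2 difference between AGED and MAT mice (horizontal axis) for each tested gene of 7 lists (rows) in males and females; filled points have an adjusted p under 0.05, black lines mark list medians, and Ephb1 in males is a diamond since it was not tested. In males Crk, Acp1 and Sdc2 are filled and Ephb1 lies far to the left at -3.06, while no point is filled in females.

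Markers of cells that carry Eph proteins or that could differ between the bladders were measured beside the family. The mean log2 signal over 9 arterial and venous markers was -0.68 to -0.29 in MAT males and -1.24 to -0.79 in AGED males, and that over 10 endothelium markers 0.29 to 0.56 and -0.24 to 0.27. The mean of neither list overlapped between the ages in males, and each list had 7 members lower in AGED males. By single gene, 1 of 10 endothelium markers and 2 of 9 arterial and venous markers did not overlap, beside 7.82% of all genes tested. In males 1 member of each list was called, beside 0.851% of all genes tested. These were Aplnr, a venous receptor, which fell by 1.63 (SE 0.38, adjusted p = 0.0468), and Erg, an endothelial transcription factor, which fell by 1.49 (SE 0.32, adjusted p = 0.0303). They were well above background on only 2 and 3 of 4 AGED male arrays. The SD of Erg was 0.89 in AGED males and 0.18 in MAT males, and its SE is shared by all 4 groups. The brightest members were near 0, with Vwf at -0.0048 and Cldn5 at 0.052 in males, and Nrp2 at -0.074 and Nr2f2 at -0.045.

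Over 10 neuron markers the mean was -1.60 to -0.77 in MAT males and -1.97 to -0.97 in AGED males, which overlap, with 4 members higher and 6 lower. In males 1 of the 10 neuron markers was called, beside 0.851% of all genes tested. It was Stmn2, a neuronal microtubule protein, which fell by 1.08 (SE 0.24, adjusted p = 0.0359), while Snap25 gave -0.19 (adjusted p = 0.500) and Uchl1 -0.62 (adjusted p = 0.367). Over 10 Schwann cell markers the mean was 0.14 to 0.47 and -0.49 to 0.58, with 8 members lower and none called, Pmp22 at -0.90 (adjusted p = 0.378) and Mbp at 0.48 (adjusted p = 0.0751). Over 8 fibroblast and matrix markers it was 5.34 to 5.43 and 4.52 to 5.42, with 7 lower and none called, Dcn at -0.29 and Col1a2 at -0.46.

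The mean over 9 leukocyte markers was -0.52 to 0.13 in MAT males and 0.16 to 1.41 in AGED males, with 7 higher, 2 lower and a median difference of 0.38. S100a8 and S100a9 were the 2 called members of these 9, beside 0.851% of all genes tested in males. S100a8 rose by 2.43 (adjusted p = 0.0211) and S100a9 by 3.08 (adjusted p = 0.0125), both calprotectin subunits of neutrophils. S100a9 is among the genes whose direction opposes the study's list. Csf1r gave 0.38 (adjusted p = 0.347) and Itgam -0.014 (adjusted p = 0.970). No list had a called member in females, beside 0.19% of all genes tested. In females the mean over the neuron markers was -1.22 to -0.80 in MAT and -1.49 to -1.31 in AGED mice, without overlap. That over the Schwann cell markers was 0.28 to 0.41 and -0.25 to 0.098, also without overlap. By single gene, 2 of 10 neuron and 5 of 10 Schwann cell markers did not overlap in females, beside 10.8% of all genes tested. The means of the other marker lists overlapped between the ages in females. Arterial and venous markers had a median difference of -0.24 in females and -0.16 in males. Of the defining markers, Hey2 and Elavl3 were each well above background on 1 of 4 AGED male arrays. For Hey2 the same held on 1 of 4 AGED female arrays, against 3 of 4 MAT male and 4 of 4 MAT female arrays. Its age difference was -1.03 for males and -0.97 for females, and neither was called. The low Hey2 signal was thus not particular to AGED males. The part of these cell types in the level of Ephb1 in AGED males was not tested. Without AGED male replicate 1, whose array is the dimmest, Ephb1 was 3.08 lower in AGED than in MAT males.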

How the data were processed

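Total RNA of 16 bladders was labelled with Cy3 and hybridized to 1-colour Agilent arrays. What the authors deposited is an intensity for every spot, the processed signal that Feature Extraction background-subtracts, without scaling between arrays (version 10.7.3.1 in the file headers, 9.1 in the submitters' processing notes). They also deposited a table of log2 values. Checked against the scanner values, it holds the log2 processed signal centred on each probe, with array constants within 0.013 of those used here.

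Processed signals were put on the log2 scale, and each array was scaled by subtracting its 75th percentile. Controls and outlier-flagged spots (399 probe values) were dropped, and saturation was seen on none. Probes needed to be well above background on 4 or more of the 16 arrays, which left 36974 of 55681 probes and 26781 genes, and the probe with the highest mean stood for each gene. Of all probes, 26576 were named through accessions of the GRCm38.p6 annotation, which was used for names and gene positions. The array itself was designed on another build. The number of arrays limits the precision.

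A single limma model (version 3.58.1, R 4.3.3) with 4 group means was fitted to all arrays. Calls required a 2-fold difference and a p adjusted over all genes (Benjamini-Hochberg) under 0.05, with no fold limit for the difference of age changes. Replicates are separate bladders. The methods' t-test and other scalings, filters, probe rules, fits, and leaving out each array were tried as alternatives. The procedure was tested on simulated arrays.

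The members, gene lists and tests were chosen with earlier results of these data known. The genes named are all members with every probe, the called genes and the 2 with the lowest p of each other Eph and ephrin list in each sex, the genes with the highest r with each member (5 for Ephb1, 2 for the others), and the called and 2 brightest members of each marker list discussed. Hey2, Elavl3, Itsn1 and the genes given for the direction of the labels stand outside this rule and were chosen after their values were seen. Adipocyte, skeletal muscle and male accessory gland markers were also listed. None of these was called in males or females, and 2 of the 10 accessory gland markers were bright enough to be tested. Single values of some marker genes are not reported here.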

Additional observations from a re-analysis of the deposited data

Results flagged for a closer look

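In AGED males, the Ephb3 signal of replicate 1 was 6.19 and those of the other 3 arrays 4.33 to 4.49, so that its gap to the nearest array was 0.916 of the range of the group. In MAT males, the main Ephb4 probe of replicate 3 was at 0.88 and the other 3 arrays at 1.07, a gap of 0.996 of the range, on a range of signals under 0.2. These are 2 of the 44 sets of 4 values screened over the 11 probes, 4.55%, and chance sets apart about 1 set in 20. The age change of Ephb1 differed between the sexes by -3.18 (males minus females) as measured. Its size is uncertain, since AGED males were near background, and it is a description, since the males chose the gene.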

How the results depend on the processing

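Counts of called members include Ephb1, whose males chose the family, so they are no support for it. In males the count was 1, but 0 with the methods' t-test after Benjamini-Hochberg adjustment, which called 0 of all genes in males (496 unadjusted). In females it was 0 in all 33 settings. Between MAT males and females it was 0, but 1 with the methods' t-test or limma at an unadjusted p, and between AGED males and females 1, but 0 with the adjusted t-test. In males, the EphA, ephrin-A, signalling and partner lists held 1 call, 0 with quantile normalization, the mean of the kept probes, the adjusted t-test, each sex fitted alone or the replicate block, 2 with normexp, 3 without the fold limit, and 0 to 2 when 1 array was left out (2 without AGED male replicate 1 or 2, 0 without any other array). The Ephb1 difference in males was -3.31 to -2.92 with 1 array left out and -1.89 with normexp (offset 50), whose offset compresses low signals. With normexp the difference of its age changes was -1.90, its AGED sex difference -1.13, and the median of all genes rose to 0.12 in males. Signs turned only in differences that were not called. With normexp, Ephb2 gave 0.19, Efna2 0.16 and Grip2 0.10 in males. With median scaling Efnb1 gave -0.036 in males, and with the mean of the kept probes Efnb2 gave -0.076 in females. With 1 array left out, the male differences ranged from -0.057 to 0.13 for Efnb1, -0.64 to 0.22 for Efnb3 and -0.069 to 0.34 for Ephb6, and the female ones from -0.054 to 0.15 for Efnb2 and -0.056 to 0.28 for Ephb1. Over all genes tested, the calls were 228 in males (0 with the adjusted t-test, 11 with each sex fitted alone, 756 with normexp) and 51 in females (1 to 506), 40 for the difference of the age changes (6 to 2644), 44 between MAT males and females (17 to 690) and 834 between AGED males and females (45 to 2547). The male calls were 74 higher and 154 lower, and with normexp 64 higher and 692 lower. The deviations of same-numbered arrays had r from -0.15 to 0.16, and those of other arrays from -0.29 to 0.27, so no pairing by replicate number was seen. The number was also the column of the array on its slide, and the 2 cannot be told apart. The replicate block left 1 member called in males and 3 genes in females, against 51 without it. The cause of these shifts was not tested.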
